A study of Mus musculus with 12 samples.

Results

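Voltage-gated and potassium ion channel genes were followed in the hippocampal CA1 subfield of mice. Members were the genes whose single symbol in the array's annotation starts with Kcn, Hcn, Cacna or Cacnb, or with Scn followed by digits and a or b. The rule found 88 genes among the 12394 genes measured, and it used no measured value. Total RNA was hybridised to 12 Affymetrix expression arrays in 4 groups of 3. The groups were SUMO-KD mice after ischemia, wild-type mice after ischemia, SUMO-KD mice after sham surgery and wild-type mice after sham surgery. Ischemia was 10 minutes of transient forebrain ischemia with 3 hours of reperfusion, and each array carried RNA pooled from 2 brains. SUMO-KD is a transgenic knockdown of SUMO, a small protein that is attached to other proteins. The promoter of the transgene, the SUMO genes it targets, the number of transgenic lines, and the strain, age and sex of the mice are not given in the sources used here.

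Voltage-gated sodium and calcium channels open when the membrane depolarises and carry current into the cell, and potassium channels carry current out and return the membrane towards rest. CA1 pyramidal neurons, which are known to die some days after forebrain ischemia, shape their firing with A-type potassium current in dendrites, calcium-activated potassium current after spikes, and leak current through two-pore channels. Pore-forming subunits set which ion passes, and auxiliary subunits change how many channels reach the membrane and how fast they open and close.

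The deposited values were linear intensities per probe set, and 1 probe set was used per gene, the one with the highest mean. Differences are given on the scale log2(intensity + 32), which understates the change of dim genes, and calls were made in limma's test where the p adjusted over all 12394 genes by Benjamini-Hochberg was under 0.05. Intensities of different probe sets are not levels that can be compared between genes. Of the 88 channel genes, 28 were dim, with a mean log2 intensity under 5, and 12 read under 32 on every array. The 12 were Cacna1s, Kcne1, Kcne3, Kcnh7, Kcnj1, Kcnj15, Kcnj2, Kcnn3, Kcnq1, Scn10a, Scn7a and Scn9a. Several of these are known from muscle, kidney or sensory ganglia. All 88 genes stayed in the fit.

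Array medians ranged from 141 to 162. The Sumo3 probe set read 1879 to 1936 in SUMO-KD ischemia against 3245 to 3518 in wild-type ischemia, and 1337 to 1689 in SUMO-KD sham against 2247 to 2467 in wild-type sham, so it was lower in the knockdown within each surgery. The 5′ control probe set for 18S ribosomal RNA read 1275 to 1660 on 5 ischemia arrays against 4194 to 6528 on the sham arrays, and 4127 on SUMO-KD ischemia replicate 2. It moved with surgery, and its part in the results was not tested. Of 6 listed CA1 pyramidal markers, 3 were measured (Wfs1, Pou3f1 and Lefty1), all above the dim threshold. Their summed intensity was 2127 to 2862 in SUMO-KD ischemia, 2341 to 3531 in wild-type ischemia, 2552 to 3262 in SUMO-KD sham and 4533 to 6431 in wild-type sham. All 3 passed the test as lower after ischemia in wild-type, and Wfs1 was also lower in SUMO-KD sham than in wild-type sham. Markers of interneurons, glia, vessels and choroid plexus were also above the dim threshold, apart from 1 mural marker.

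Markers of other cells also moved with ischemia. The 4 measured dentate granule cell markers of 5 listed summed to 1804 to 2220 in SUMO-KD ischemia against 3108 to 4326 in SUMO-KD sham. In wild-type they summed to 1870 to 2023 after ischemia against 2289 to 3807 after sham surgery. Of these, Lct was lower in both genotypes, and Prox1 was higher in wild-type. The 3 measured CA3 markers of 5 listed had no call in either genotype. The 6 measured microglia markers of 7 listed summed to 4043 to 4460 in SUMO-KD ischemia against 5292 to 5521 in SUMO-KD sham, and to 4075 to 4377 in wild-type ischemia against 5120 to 5645 in wild-type sham, and 3 passed as lower in each genotype. The 3 oligodendrocyte precursor markers summed to 2988 to 3151 in SUMO-KD ischemia against 3565 to 4060 in SUMO-KD sham (2 lower), and to 2535 to 3078 in wild-type ischemia against 3650 to 3794 in wild-type sham (1 lower). The 6 measured endothelial markers of 7 listed summed to 1419 to 1537 in SUMO-KD ischemia against 1644 to 2162 in SUMO-KD sham, and to 1415 to 1820 in wild-type ischemia against 1965 to 2410 in wild-type sham, with Slco1a4 and Tek lower and Cdh5 higher in both genotypes. Of 7 astrocyte markers, Sox9 rose in SUMO-KD, and Gfap and Sox9 rose in wild-type. The part of these markers in the responses of the channel genes was not tested.

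After ischemia, channel genes moved in both directions, and the share called was no higher than among all genes in any of the 3 ischemia comparisons. In the mean of both genotypes 9 channel genes rose and 12 fell, together 23.9% of the 88, beside 26.7% of all genes called (12.8% up and 14.0% down). In SUMO-KD 1 rose and 1 fell, 2.27% beside 10.7% of all genes (6.08% up and 4.62% down). In wild-type 9 rose and 4 fell, 14.8% beside 18.5% of all genes (9.59% up and 8.88% down). The median channel gene changed by -0.01 in SUMO-KD and -0.04 in wild-type, and the median of all genes by -0.02 in SUMO-KD and -0.04 in wild-type. The channel median was 0.05 in wild-type without wild-type sham replicate 2, and in SUMO-KD it was 0.02 without SUMO-KD sham replicate 2 and 0.0045 without SUMO-KD ischemia replicate 2, so its sign rested on those arrays. At an unadjusted p under 0.05 the counts were 16 channel genes in SUMO-KD (18.2% beside 24.1% of all genes) and 28 in wild-type (31.8% beside 31.3%). Ischemia and sham arrays did not overlap in 12 higher (13.6% beside 13.9% of all genes) and 10 lower channel genes (11.4% beside 15.9%) in SUMO-KD. In wild-type they did not overlap in 12 higher (13.6% beside 15.6%) and 18 lower ones (20.5% beside 19.5%). Without SUMO-KD ischemia replicate 2, the array whose 18S control stood apart, the mean of both genotypes had 8 rises and 6 falls. The 9 wild-type rises became 4 without wild-type ischemia replicate 1 or 3 and 5 without wild-type sham replicate 1, omissions that left 1606, 1647 and 1546 calls among all genes, beside 2289. The 4 wild-type falls became 1 without wild-type ischemia replicate 3 and 2 without SUMO-KD sham replicate 1 or 2 or SUMO-KD ischemia replicate 3. The count of SUMO-KD falls was 0 without SUMO-KD ischemia replicate 2, SUMO-KD sham replicate 1 or 3 or, in wild-type, ischemia replicate 1 or sham replicate 1 or 3. It was 2 without SUMO-KD sham replicate 2 or wild-type ischemia replicate 3. In these counts a newly called gene can stand in for one that lost its call. The lone SUMO-KD rise became 2 without SUMO-KD sham replicate 3 or wild-type sham replicate 2.

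**Figure D1:**
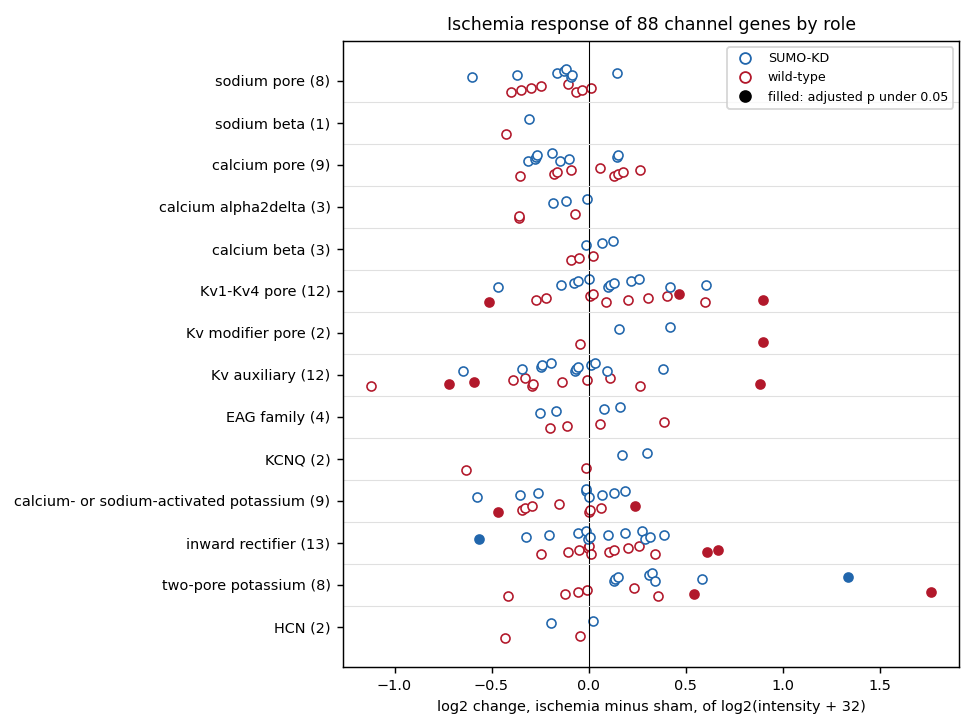
Ischemia response of the 88 channel genes, with 1 point per gene and genotype. The x axis is the difference of log2(intensity + 32), ischemia minus sham; rows are role groups with their number of genes; blue is SUMO-KD, red is wild-type, and filled points had an adjusted p under 0.05. Filled points lie on both sides of 0 in wild-type, and the point farthest to the right in each genotype is Kcnk3 (1.34 in SUMO-KD and 1.77 in wild-type).

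Two-pore potassium channels carry leak current that holds the resting potential. Kcnk3 encodes the acid-sensitive leak channel TASK-1. Its intensity was 152, 224 and 175 in SUMO-KD ischemia against 56.7, 60.8 and 41.4 in SUMO-KD sham. In wild-type it was 285, 274 and 462 after ischemia against 68.5, 83.0 and 73.2 after sham surgery. All 6 ischemia arrays lay above all 6 sham arrays. Kcnk3 rose by 1.34 in SUMO-KD (SE 0.18, adjusted p = 0.000778) and by 1.77 in wild-type (SE 0.18, adjusted p = 8.69e-05). It was the 1 channel gene called in both genotypes, 1.14% of the 88 beside 8.29% of all genes. Of the other probe sets annotated to Kcnk3, none had a group mean above 6.89, and none was called. The call held when each array was left out in turn, with a highest adjusted p of 0.00477 in SUMO-KD.

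Kcnk1 encodes TWIK-1, another leak channel of neurons and astrocytes. It read 3231, 4193 and 3871 in SUMO-KD ischemia against 3102, 2794 and 3062 in SUMO-KD sham, and 4756, 3732 and 5323 in wild-type ischemia against 3117, 2961 and 3270 in wild-type sham. The groups did not overlap in either genotype. Kcnk1 rose by 0.54 in wild-type (SE 0.13, adjusted p = 0.016), and its value in SUMO-KD was 0.32 (SE 0.13, adjusted p = 0.162). Its second probe set was called in wild-type as well (0.74, adjusted p = 0.0131 over all probe sets). Without wild-type ischemia replicate 1 or 3 the Kcnk1 call in wild-type was lost (adjusted p 0.0546 and 0.0607). The remaining 6 two-pore genes had no call. Kcnk2, the mechanically gated TREK-1, averaged 568 in SUMO-KD ischemia and 515 in SUMO-KD sham, and 757 in wild-type ischemia and 783 in wild-type sham.

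Among voltage-gated potassium pores, Kcna1 and Kcnc4 rose and Kcnd2 fell in wild-type, out of 12 genes of the Kv1 to Kv4 families. Kcna1 encodes a low-threshold channel of axons and terminals. It read 2583, 2891 and 2539 in SUMO-KD ischemia against 2178, 2427 and 2074 in SUMO-KD sham, and 3640, 3687 and 4216 in wild-type ischemia against 2685, 2618 and 3016 in wild-type sham. Within each genotype every ischemia array lay above every sham array. The rise in wild-type was 0.47 (SE 0.10, adjusted p = 0.0079), and the SUMO-KD value was 0.26 (SE 0.10, adjusted p = 0.133). The wild-type call held in all 12 omissions of an array.

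Kcnc4 encodes a fast, inactivating Kv3 channel. Its intensities were 612, 961 and 732 in SUMO-KD ischemia against 647, 370 and 475 in SUMO-KD sham, which overlapped. In wild-type they were 827, 568 and 917 after ischemia against 325, 327 and 556 after sham surgery, with no overlap but with the lowest ischemia array close to the highest sham array. Kcnc4 rose by 0.90 in wild-type (SE 0.26, adjusted p = 0.0322), with 0.61 in SUMO-KD (SE 0.26, adjusted p = 0.176). A second, dimmer probe set had 0.81 in wild-type, without a call (adjusted p = 0.137 over all probe sets). Its mean response over both genotypes was 0.76 (adjusted p = 0.039 over all probe sets), beside 0.75 (adjusted p = 0.0101) for the one used. The wild-type call was lost when the probe sets were averaged (0.86, adjusted p = 0.0593). It was also lost when probe sets marked as shared were left out (0.81, adjusted p = 0.128). Leaving out ischemia replicate 1 or 3 or sham replicate 1 or 2 of wild-type ended the wild-type call (adjusted p 0.0936 to 0.112), while the call in the mean of both genotypes held in all 12 omissions.

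Kcnd2 encodes Kv4.2, the main A-type channel of CA1 dendrites. It read 2538, 1829 and 2131 in SUMO-KD ischemia against 2893, 3014 and 3038 in SUMO-KD sham, and 2455, 2635 and 1754 in wild-type ischemia against 3660, 2839 and 3220 in wild-type sham. Ischemia arrays were lower than sham arrays in both genotypes, without overlap. The fall in wild-type was -0.51 (SE 0.16, adjusted p = 0.0466), the SUMO-KD value was -0.47 (SE 0.16, adjusted p = 0.0931), and the mean of both was -0.49 (SE 0.11, adjusted p = 0.00801). The wild-type call was lost in 8 of 12 omissions, those of ischemia replicate 1 or 3 or sham replicate 1 or 3 in wild-type, any SUMO-KD sham array or SUMO-KD ischemia replicate 3 (adjusted p 0.061 to 0.157), and the call in the mean held in all 12. Both other Kcnd2 probe sets, which were not dim, were uncalled, with mean responses of -0.08 and -0.28. When the probe sets were averaged, the calls in wild-type (-0.29, adjusted p = 0.2525) and in the mean of both genotypes were lost. The summed CA1 markers given above were also lower after ischemia in wild-type. In SUMO-KD their sums overlapped, at 2127 to 2862 after ischemia and 2552 to 3262 after sham surgery, and 0 of the markers were called. The part of these markers in the Kcnd2 result was not tested. In bulk tissue, fewer cells of a type and less RNA per cell cannot be told apart.

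Kcns1 encodes a modifier subunit that forms no channel alone and alters other Kv channels. Its intensities were low, at 65.2, 80.7 and 63.0 in SUMO-KD ischemia against 47.3, 42.2 and 41.8 in SUMO-KD sham, and 65.6, 63.5 and 55.5 in wild-type ischemia against 22.4, 5.62 and 29.5 in wild-type sham. The 6 ischemia arrays exceeded the 6 sham arrays. Kcns1 rose by 0.90 in wild-type (SE 0.15, adjusted p = 0.0021), with 0.42 in SUMO-KD (SE 0.15, adjusted p = 0.113), and the wild-type call held in all 12 omissions.

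**Figure D2:**
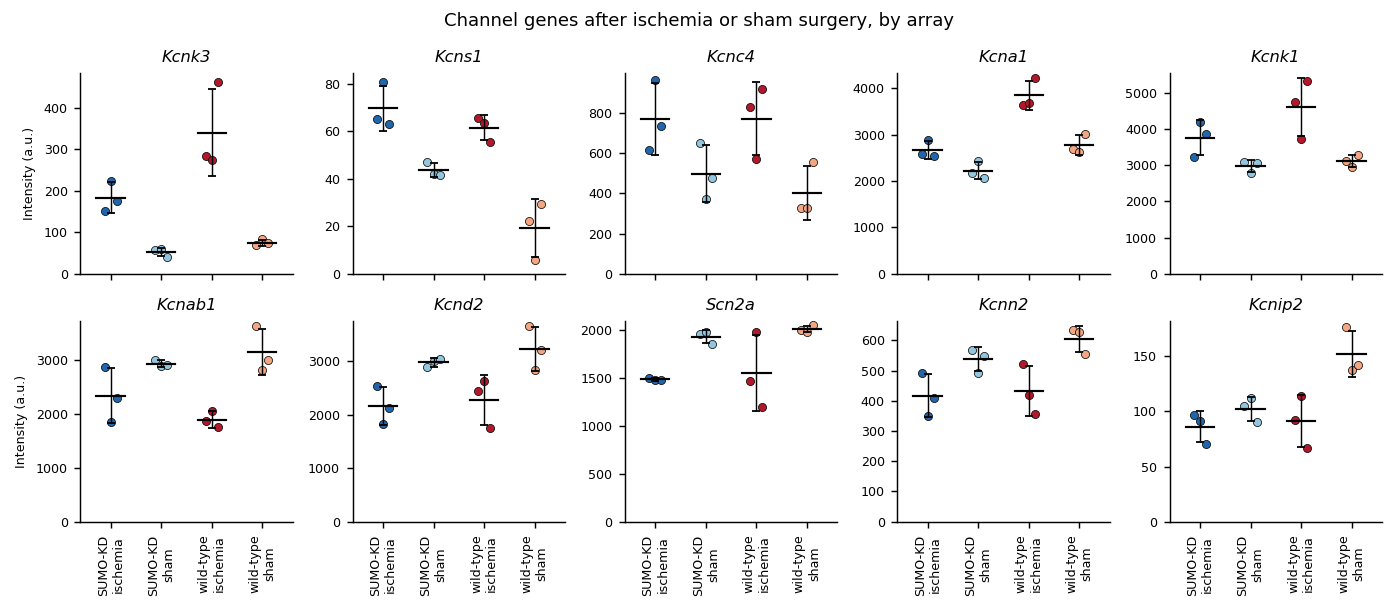
Intensity of 10 channel genes in each array, in arbitrary units on a linear axis from 0. Points are arrays, long lines are group means and bars are SD (n = 3). Kcnk3, Kcns1, Kcnc4, Kcna1 and Kcnk1 had higher means after ischemia than after sham surgery, and Kcnab1, Kcnd2, Scn2a, Kcnn2 and Kcnip2 had lower means.

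Auxiliary subunits of voltage-gated potassium channels numbered 12, of which 1 rose and 2 fell in wild-type, and 1 rose and 3 fell in the mean of both genotypes. Kcnab1 encodes a cytoplasmic beta subunit that speeds inactivation of Kv1 channels. It read 2882, 1859 and 2291 in SUMO-KD ischemia against 3005, 2897 and 2915 in SUMO-KD sham, and 1879, 2062 and 1758 in wild-type ischemia against 3635, 2829 and 3004 in wild-type sham. The groups did not overlap in either genotype, although SUMO-KD ischemia replicate 1 lay just under the sham arrays. The fall was -0.72 in wild-type (SE 0.15, adjusted p = 0.00592), with -0.34 in SUMO-KD (SE 0.15, adjusted p = 0.175). That wild-type call held in all 12 omissions. A second probe set, not dim, was uncalled, with -0.30 in wild-type (adjusted p = 0.237 over all probe sets).

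KChIP proteins bind Kv4 channels, and many of their forms, though not all, raise the number of these channels at the surface. Kcnip2 read 97.2, 90.9 and 70.2 in SUMO-KD ischemia against 105, 112 and 90.3 in SUMO-KD sham, and 92.7, 114 and 66.6 in wild-type ischemia against 177, 138 and 142 in wild-type sham. The wild-type groups were apart, and the SUMO-KD groups overlapped. It fell in wild-type (-0.59, SE 0.15, adjusted p = 0.0183), and its SUMO-KD value was -0.19 (adjusted p = 0.502). Its second probe set was dim and uncalled, with -0.44 in wild-type. Kcnip4 passed in the mean of both genotypes at -0.32 (SE 0.09, adjusted p = 0.0207), with -0.24 in SUMO-KD and -0.39 in wild-type. Its second probe set did not move, at 0.04. Kcnip3, whose product is also known as the transcriptional repressor DREAM, went the other way. Its intensities were 313, 334 and 209 in SUMO-KD ischemia against 319, 200 and 136 in SUMO-KD sham, and 238, 166 and 276 in wild-type ischemia against 96.8, 152 and 79.0 in wild-type sham. Only the wild-type groups were free of overlap. Kcnip3 rose by 0.88 in wild-type (SE 0.28, adjusted p = 0.0492), with 0.38 in SUMO-KD (adjusted p = 0.467), and its second probe set had 0.01 in wild-type. The Kcnip2 call was lost without ischemia replicate 3 or sham replicate 1 of wild-type (adjusted p 0.0637 and 0.0753). The Kcnip3 call was lost in 7 omissions, those of SUMO-KD ischemia replicate 1 or 2, SUMO-KD sham replicate 2, and ischemia replicate 1 or 3 and sham replicate 1 or 3 of wild-type (adjusted p 0.0568 to 0.158), and the call in the mean of both genotypes, 0.63 (adjusted p = 0.0351), was lost in 8, the same 7 and SUMO-KD sham replicate 3 (up to 0.084).

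Kcne2, a subunit known from the choroid plexus and chosen here after its values were seen, had the widest spread. It read 58.0, 252 and 173 in SUMO-KD ischemia against 127, 291 and 359 in SUMO-KD sham, and 28.2, 164 and 465 in wild-type ischemia against 466, 398 and 250 in wild-type sham. The groups overlapped, and neither the SUMO-KD value of -0.65 (adjusted p = 0.628) nor the wild-type value of -1.12 (adjusted p = 0.285) passed. Of 5 listed choroid plexus markers 3 were measured (Ttr, Folr1 and Aqp1), with sums of 20514 to 24871 in SUMO-KD ischemia, 14757 to 17991 in wild-type ischemia, 18086 to 21464 in SUMO-KD sham and 16732 to 23865 in wild-type sham. Group means were 15714 to 22035 for Ttr, 536 to 753 for Folr1 and 144 to 269 for Aqp1, so the sums followed mostly Ttr. The part of these markers in the spread of Kcne2 was not tested.

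The group named for potassium channels opened by calcium or sodium, with their subunits, was formed by symbol and numbered 9. Kcnu1 belongs to it by its symbol only. Kcnn2 encodes SK2, a small-conductance channel of the afterhyperpolarisation and of spines. It read 491, 350 and 410 in SUMO-KD ischemia against 569, 492 and 550 in SUMO-KD sham, and 523, 419 and 357 in wild-type ischemia against 633, 628 and 556 in wild-type sham. Ischemia arrays lay below sham arrays in each genotype. Kcnn2 fell in wild-type (-0.47, SE 0.14, adjusted p = 0.0419), its SUMO-KD value was -0.35 (adjusted p = 0.156), and the mean was -0.41 (SE 0.10, adjusted p = 0.0112). The wild-type call was lost in 9 omissions, those of wild-type ischemia replicate 2 or 3, SUMO-KD ischemia replicate 3 and any sham array (adjusted p 0.0519 to 0.144), while that of the mean held in all 12. Kcnmb4, the neuronal beta subunit of the large-conductance channel, read 1184, 1208 and 1158 in SUMO-KD ischemia against 1176, 1224 and 1189 in SUMO-KD sham, and 1399, 1383 and 1312 in wild-type ischemia against 1094, 1186 and 1180 in wild-type sham. The wild-type groups were apart and the SUMO-KD groups overlapped. Kcnmb4 rose by 0.24 in wild-type (SE 0.07, adjusted p = 0.0442), with -0.02 in SUMO-KD (SE 0.07, adjusted p = 0.937), and its call was lost whichever of the 12 arrays was left out (adjusted p 0.0532 to 0.153).

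In the mean of both genotypes, Kcnmb2, another beta subunit of the large-conductance channel, also fell (-0.29, SE 0.09, adjusted p = 0.0268), but its second probe set, which was not dim, had -0.07 (adjusted p = 0.67), and the call was lost when both were averaged (-0.18, adjusted p = 0.105). Kcnu1, whose channel is known from sperm, fell (-0.46, SE 0.15, adjusted p = 0.0401). The pore gene of the large-conductance channel, Kcnma1, had a mean response of 0.03 (adjusted p = 0.873). Kcnmb2 lost its call without SUMO-KD ischemia replicate 2 or 3, SUMO-KD sham replicate 1 or wild-type ischemia replicate 1 or 2 (adjusted p 0.0517 to 0.0649). Kcnu1 lost its call without SUMO-KD ischemia replicate 1 or 2, SUMO-KD sham replicate 1 or 3, wild-type ischemia replicate 1 or 3 or any wild-type sham array (0.0519 to 0.0966).

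Inward rectifiers pass potassium most easily near rest, and 13 were measured. Kcnj14, a gene of the strongly rectifying Kir2 group, read 44.0, 44.9 and 57.4 in SUMO-KD ischemia against 39.6, 41.5 and 23.6 in SUMO-KD sham, and 53.5, 53.6 and 76.7 in wild-type ischemia against 27.5, 29.6 and 28.9 in wild-type sham. Kcnj4, of the same group, read 284, 378 and 371 in SUMO-KD ischemia against 279, 259 and 267 in SUMO-KD sham, and 438, 297 and 602 in wild-type ischemia against 248, 277 and 251 in wild-type sham. For both genes the ischemia arrays were above the sham arrays in each genotype. Kcnj14 rose by 0.61 in wild-type (SE 0.13, adjusted p = 0.00754), with 0.28 in SUMO-KD (adjusted p = 0.219), and Kcnj4 rose by 0.67 in wild-type (SE 0.19, adjusted p = 0.0321), with 0.32 in SUMO-KD (adjusted p = 0.358). Kcnj14 kept its wild-type call in all 12 omissions. Kcnj4 lost it without wild-type ischemia replicate 1 or 3 or any wild-type sham array (adjusted p 0.0545 to 0.0961).

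Kcnj6 encodes GIRK2, a rectifier opened by G proteins. It rose in the mean of both genotypes by 0.30 (SE 0.09, adjusted p = 0.0251), with 0.39 in SUMO-KD (adjusted p = 0.0667) and 0.20 in wild-type (adjusted p = 0.293), and the call was lost without replicate 1 or 3 of SUMO-KD ischemia, replicate 1 or 2 of SUMO-KD sham, or replicate 3 of either wild-type group (adjusted p 0.0522 to 0.0624). Of 5 probe sets annotated to Kcnj6, the other 4 had mean responses between -0.12 and 0.15. Kcnj11 encodes Kir6.2, the pore of the ATP-sensitive channel. It read 2.83, 2.16 and 13.9 in SUMO-KD ischemia against 23.5, 12.9 and 38.8 in SUMO-KD sham, which overlapped, and 24.4, 23.6 and 20.3 in wild-type ischemia against 31.9, 37.7 and 29.6 in wild-type sham. Of these 12 readings, all but 38.8 and 37.7 lay under the offset of 32. Kcnj11 fell in SUMO-KD (-0.56, SE 0.16, adjusted p = 0.0433), with -0.25 in wild-type (adjusted p = 0.328), and it was the 1 fall in SUMO-KD. That call was lost in 10 of 12 omissions, all but SUMO-KD sham replicate 2 and SUMO-KD ischemia replicate 3 (adjusted p 0.0518 to 0.16). Its mean over both genotypes, -0.41 (adjusted p = 0.0198), lost its call without SUMO-KD ischemia replicate 2 (0.051). The regulatory subunit of the same channel, Abcc8, is not a member by its symbol. It averaged 227 ± 60.0 in SUMO-KD ischemia and 392 ± 68.4 in SUMO-KD sham, and 131 ± 16.5 in wild-type ischemia and 266 ± 36.8 in wild-type sham (SD, n = 3 each). Abcc8 fell by 0.73 on the log2 scale in SUMO-KD (adjusted p = 0.0209) and by 0.87 in wild-type (adjusted p = 0.00523).

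Sodium channel genes had no call within a genotype, and in the mean of both genotypes 2 of 8 pore genes and the 1 beta subunit gene fell. Scn2a encodes Nav1.2, a main channel of excitatory neurons. It read 1500, 1479 and 1483 in SUMO-KD ischemia against 1965, 1980 and 1856 in SUMO-KD sham, and 1471, 1986 and 1201 in wild-type ischemia against 2006, 1988 and 2053 in wild-type sham. The SUMO-KD ischemia arrays sat close together below the sham arrays, and wild-type ischemia replicate 2 was level with the wild-type sham arrays. Scn2a fell in the mean (-0.39, SE 0.10, adjusted p = 0.014), a call that held in all 12 omissions. Scn1a, whose channel is known best from interneurons, passed at -0.24 (SE 0.08, adjusted p = 0.0484), with -0.12 in SUMO-KD and -0.35 in wild-type. Scn3b, which encodes the beta3 subunit, passed at -0.37 (SE 0.11, adjusted p = 0.0339). Scn1a lost its call whichever array was left out except SUMO-KD ischemia replicate 1 and wild-type sham replicate 1 (adjusted p 0.0509 to 0.102). Scn3b lost it without SUMO-KD ischemia replicate 2 or 3, SUMO-KD sham replicate 1 or 2, wild-type ischemia replicate 3 or wild-type sham replicate 1 or 3 (0.0545 to 0.0772). The second probe sets of Scn1a, Scn2a and Scn3b were uncalled, with mean responses of 0.01, -0.29 and -0.28. Of 7 interneuron markers, all measured, Sst, Pvalb and Vip were lower after ischemia in wild-type. The 7 summed to 14349 to 17663 in SUMO-KD ischemia and 14430 to 14891 in SUMO-KD sham, and to 13647 to 16606 in wild-type ischemia and 14893 to 15895 in wild-type sham, and their part in these results was not tested. Scn8a, the channel of nodes and initial segments, had -0.23 (adjusted p = 0.0756). Scn3a had -0.18 (adjusted p = 0.319) on a dim probe set.

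Calcium channel genes numbered 15, and 1 of them passed. Cacna1h encodes Cav3.2, a low-voltage (T-type) pore. It read 839, 664 and 814 in SUMO-KD ischemia against 1083, 839 and 900 in SUMO-KD sham, and 693, 666 and 680 in wild-type ischemia against 791, 784 and 1082 in wild-type sham. In each genotype the sham arrays were higher, by a narrow margin. Cacna1h fell in the mean of both genotypes (-0.31, SE 0.10, adjusted p = 0.037). Its second probe set passed as well (-0.39, adjusted p = 0.0307 over all probe sets), and the call was lost without SUMO-KD ischemia replicate 2 or 3, SUMO-KD sham replicate 1 or 3, wild-type sham replicate 3 or any wild-type ischemia array (adjusted p 0.0518 to 0.0902). No other calcium pore gene was called. The pore genes of the P/Q, N, L and R types, Cacna1a, Cacna1b, Cacna1c, Cacna1d and Cacna1e, had mean responses of 0.00, -0.01, -0.10, -0.09 and 0.04, and the T-type gene Cacna1g had 0.10. Cacna1b and Cacna1e were dim, so their values say little about a change. The auxiliary genes Cacna2d1 and Cacnb4 had -0.24 (adjusted p = 0.389) and 0.00 (adjusted p = 0.984).

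A list of 48 channel genes known from CA1 neurons held 40 measured genes, and 24 of them had no call in any comparison, with mean responses from -0.24 to 0.15. Of these 24, 6 were dim. The 16 called were 40% of the 40, beside 28.4% of the 88 channel genes and 29.5% of all genes called in any comparison, and the list was chosen with earlier results known. The other 8 were not analysed here. The Kv genes Kcna2, Kcna4, Kcnc1 and Kcnd3 had mean responses of -0.06, 0.01, 0.06 and 0.15, with Kcna2 and Kcnd3 on dim probe sets. The auxiliary genes Kcnip1 and Kcnab2 had 0.11 and -0.20. Kcnq5, a pore of the M current that damps repetitive firing, had -0.17, and the EAG gene Kcnh1 had -0.02. Kcnn3, under 32 on every array, had 0.04, and the G protein-gated Kcnj3 had 0.01. Kcnj10, the Kir4.1 channel with which astrocytes take up potassium, had -0.22 (adjusted p = 0.0587). Hcn2, a pore of the current activated by hyperpolarisation, had -0.12 (adjusted p = 0.168).

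For SUMO-KD, the 5 channel genes with the smallest p after ischemia were Kcnk3, Kcnj11, Kcnj6, Scn11a (-0.60, adjusted p = 0.0844, dim) and Kcnj10 (-0.32, adjusted p = 0.0846). Of the 9 genes that rose in wild-type, 8 had a value above 0 in SUMO-KD, and of the 4 that fell all 4 had a value below 0. These genes were chosen by their wild-type values, which are favoured by that choice. Across the 88 genes the responses of SUMO-KD and wild-type correlated at r = 0.661 and had the same sign in 59.09%, beside 0.779 and 72.49% across all genes, given as a description. The 2 responses use separate arrays.

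The difference between the genotypes' responses was itself tested, and 0 channel genes passed (0.0161% of all genes did). At an unadjusted p under 0.05 there were 8, 9.09% of the 88 beside 6.20% of all genes. The 5 with the smallest p were Kcnn1 (0.42, SE 0.14, adjusted p = 0.718), Kcna5 (-0.74, SE 0.29), Kcnmb4 (-0.25), Kcnh7 (-0.56, dim) and Kcna6 (-0.48), the last 4 with an adjusted p of 0.796. For the 13 genes called in wild-type the difference of responses ran from -0.50 to 0.40, and none of the 13 passed. The larger count of calls in wild-type is therefore not shown to be a difference in response for any channel gene.

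Promoter windows, from 250 bases before to 50 after a start, were looked up in RefSeq (GRCm38.p6) because several channel genes moved within 3 hours of the ischemia. The table held 97 windows of 70 channel genes, and 18 genes had none, Kcnk3 and Kcna1 among them. The motif counts are of windows and not of genes. Among genes called in the mean of both genotypes, Kcnip3 and Kcnj6 (higher) and Kcnab1, Kcnip4 and Scn2a (lower) gave more than 1 window each. The short form of the cyclic AMP response element, TGACG, searched on both strands, lay in 3 of 9 windows of genes that rose in the mean of both genotypes and in 0 of 11 windows of genes that fell. It lay in 16.5% of the 97 channel windows and in 20.8% of all 32851 windows. The full element TGACGTCA, which contains the short form, lay in 0 channel windows and in 1.79% of all. The AP-1 motif TGANTCA lay in 1 of the 9, 1 of the 11, 4.12% of the channel windows and 7.81% of all. The EGR motif GCGNGGGCG lay in 0 of the 9, 0 of the 11, 10.3% of the channel windows and 5.55% of all. Channel windows had a median GC content of 58.3%, against 52.7% for all. It was 63.3% for the 9 windows of genes that rose and 47.7% for the 11 of genes that fell, and the part of this difference in the motif counts was not tested. The windows of Kcnc4 (chr3:107458849-107459148, minus strand) and Kcnj4 (chr15:79505192-79505491, minus strand), genes that rose and whose window holds the short form, are shown 5′ to 3′ with that site in capitals.
Kcnc4: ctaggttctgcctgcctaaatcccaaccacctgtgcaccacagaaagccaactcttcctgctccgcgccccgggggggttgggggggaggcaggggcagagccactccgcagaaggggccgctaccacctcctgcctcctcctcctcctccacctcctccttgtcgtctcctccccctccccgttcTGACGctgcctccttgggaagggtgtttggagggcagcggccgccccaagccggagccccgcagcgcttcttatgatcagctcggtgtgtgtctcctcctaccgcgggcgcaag
Kcnj4: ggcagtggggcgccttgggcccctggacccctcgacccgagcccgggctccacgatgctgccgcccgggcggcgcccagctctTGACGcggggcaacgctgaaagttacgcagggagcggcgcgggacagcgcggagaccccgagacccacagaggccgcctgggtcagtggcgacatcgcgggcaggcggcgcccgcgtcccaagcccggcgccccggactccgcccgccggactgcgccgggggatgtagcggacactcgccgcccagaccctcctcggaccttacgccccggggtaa
A match of letters is a description of the window and not a bound site.

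Between the genotypes, 5 channel genes passed the test in at least 1 surgery and the median channel gene was slightly lower in SUMO-KD than in wild-type. After ischemia 2 channel genes were higher and 1 lower in SUMO-KD, 3.41% of the 88 beside 1.56% of all genes (1.0% higher and 0.557% lower). After sham surgery 2 were higher and 1 lower, 3.41% beside 2.10% of all genes (1.50% higher and 0.597% lower). At an unadjusted p under 0.05 there were 21 after ischemia, 23.9% beside 15.5% of all genes. Of these 7 were higher (7.95% beside 8.31%) and 14 lower (15.9% beside 7.14%). After sham surgery there were 28 at that threshold, 31.8% beside 14.2% of all genes. Of these 12 were higher (13.6% beside 7.68%) and 16 lower (18.2% beside 6.50%). The groups did not overlap in 14 genes that were lower in SUMO-KD ischemia (15.9% beside 8.90% of all genes) and in 18 that were lower in SUMO-KD sham (20.5% beside 9.67%). They did not overlap in 8 genes that were higher in SUMO-KD ischemia (9.09% beside 11.3% of all genes) and in 8 that were higher in SUMO-KD sham (9.09% beside 11.0%).

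The median difference of the 88 genes, SUMO-KD minus wild-type, was -0.07 after ischemia, beside -0.00 for all genes, and -0.09 after sham surgery, beside -0.01 for all genes. Below 0 were 56 of the 88 after ischemia (63.64%, beside 50.59% of all genes) and 59 after sham surgery (67.05%, beside 52.86%). The median size of the difference was 0.170 after ischemia, beside 0.133 for all genes, and 0.204 after sham surgery, beside 0.126. Without wild-type sham replicate 2 the sham median was -0.04, beside 0.01 for all genes. These are counts and medians, with no test of the list. The summed CA1 markers, given above, were also lower in SUMO-KD sham than in wild-type sham, and in that comparison Gfap and Aqp4 of 7 astrocyte markers were higher in SUMO-KD. The astrocyte markers summed to 12574 to 14357 in SUMO-KD sham and 10306 to 12001 in wild-type sham. Whether these shifts in markers bear on the channel genes was not tested.

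**Figure D3:**
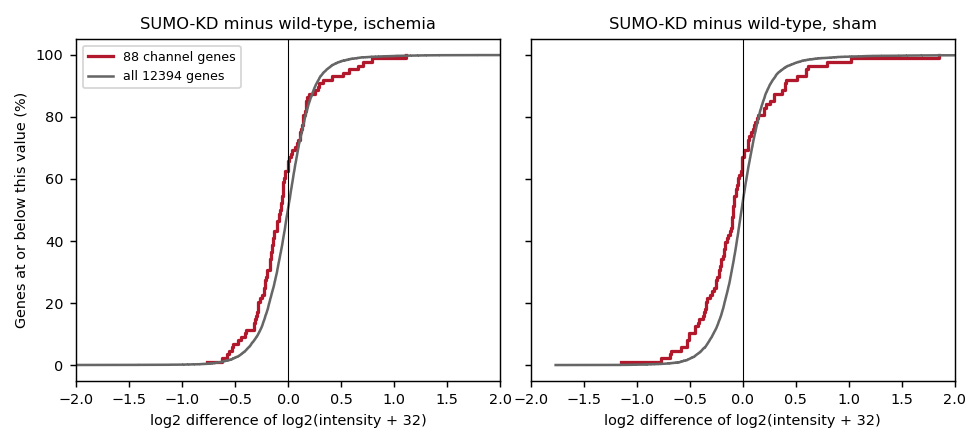
Cumulative share of genes by their difference between genotypes. The x axis is the difference of log2(intensity + 32), SUMO-KD minus wild-type, shown from -2 to 2, and the y axis is the percentage of genes at or below it; red is the 88 channel genes and grey is all 12394 genes, for ischemia and for sham. The red curve crosses 0 at 63.64% after ischemia and 67.05% after sham surgery, and the grey curve at 50.59% and 52.86%.

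Kcna5 encodes Kv1.5, a delayed rectifier known best from heart and vascular muscle. It read 173, 167 and 209 in SUMO-KD ischemia against 65.5, 57.9 and 80.0 in wild-type ischemia, and 207, 150 and 272 in SUMO-KD sham against 20.8, 29.1 and 55.3 in wild-type sham. Every SUMO-KD array lay above every wild-type array. Kcna5 was higher in SUMO-KD by 1.11 after ischemia (SE 0.21, adjusted p = 0.0236) and by 1.85 after sham surgery (SE 0.21, adjusted p = 0.000725). The sham call held in all 12 omissions. The ischemia call was lost without SUMO-KD ischemia replicate 1 or 3 or wild-type ischemia replicate 1 or 2 (adjusted p 0.0701 to 0.109). Within wild-type its ischemia value was 0.60 (adjusted p = 0.065), and within SUMO-KD -0.14 (adjusted p = 0.747).

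In the RefSeq gene order Kcna5 neighbours Kcna1, which neighbours Kcna6, and the 3 did not share a direction. Kcna1, whose arrays are given above, was lower in SUMO-KD ischemia than in wild-type ischemia by -0.52 (SE 0.10, adjusted p = 0.0273), and after sham surgery the value was -0.31 (adjusted p = 0.169). The groups did not overlap in either surgery. The ischemia call was lost without SUMO-KD ischemia replicate 1 or 3 or any wild-type ischemia array (adjusted p 0.0531 to 0.125). Kcna6 read 29.6, 48.2 and 44.3 in SUMO-KD ischemia against 38.1, 38.6 and 62.6 in wild-type ischemia, and 35.7, 47.5 and 49.7 in SUMO-KD sham against 28.7, 30.2 and 21.8 in wild-type sham. The ischemia groups overlapped and the sham groups did not, and neither the ischemia value of -0.10 (adjusted p = 0.788) nor the sham value of 0.37 (adjusted p = 0.261) passed.

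Kcnu1 read 143, 99.0 and 161 in SUMO-KD ischemia against 47.9, 78.4 and 65.7 in wild-type ischemia, and 227, 146 and 285 in SUMO-KD sham against 104, 81.4 and 82.2 in wild-type sham. SUMO-KD arrays were higher in both surgeries, without overlap. It was higher in SUMO-KD sham by 1.02 (SE 0.21, adjusted p = 0.0327), and the ischemia value was 0.79 (SE 0.21, adjusted p = 0.1). Kcns2, a modifier subunit like Kcns1, read 50.3, 48.6 and 30.2 in SUMO-KD ischemia against 59.6, 96.8 and 83.7 in wild-type ischemia, and 33.9, 40.0 and 30.9 in SUMO-KD sham against 95.9, 93.8 and 60.5 in wild-type sham. SUMO-KD arrays were lower in both surgeries. Kcns2 was lower in SUMO-KD sham by -0.77 (SE 0.16, adjusted p = 0.036), and the ischemia value was -0.58 (SE 0.16, adjusted p = 0.123). Kcnu1 lost its call without SUMO-KD sham replicate 1 or 3 or any wild-type sham array (adjusted p 0.0704 to 0.133), and Kcns2 without any 1 SUMO-KD sham array or wild-type sham replicate 1 or 2 (0.0651 to 0.153).

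Kcnn1 encodes SK1, a relative of SK2. It read 156, 177 and 158 in SUMO-KD ischemia against 93.6, 107 and 98.6 in wild-type ischemia, and 155, 133 and 152 in SUMO-KD sham against 111, 135 and 143 in wild-type sham. The ischemia groups were apart and the sham groups overlapped. Kcnn1 was higher in SUMO-KD ischemia by 0.57 (SE 0.10, adjusted p = 0.0164), and the sham value was 0.15 (adjusted p = 0.568). Its second probe set had 0.15 after ischemia (adjusted p = 0.671 over all probe sets). The call was lost without SUMO-KD ischemia replicate 2 or 3 or wild-type ischemia replicate 1 (adjusted p 0.0537 to 0.0721).

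**Figure D4:**
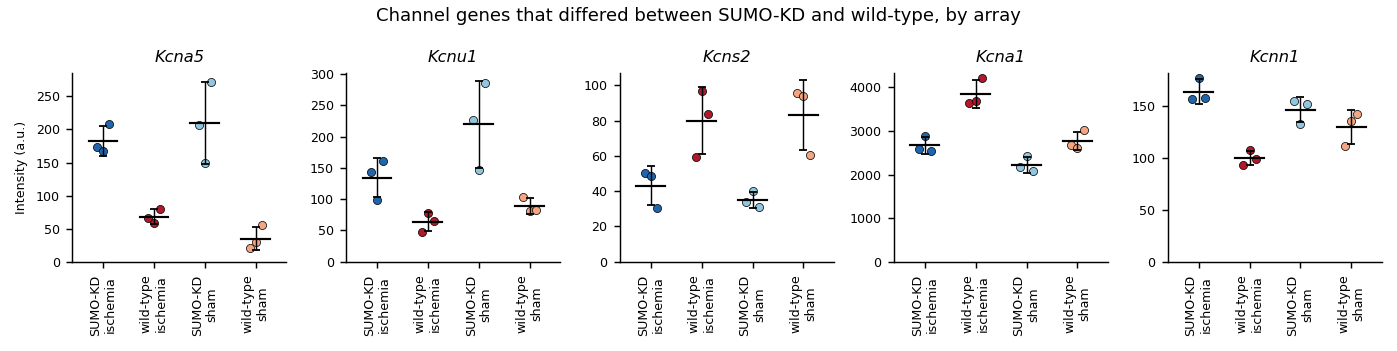
Intensity of the 5 channel genes called between genotypes, in arbitrary units on a linear axis from 0. Points are arrays, long lines are group means and bars are SD (n = 3). SUMO-KD arrays lie above wild-type arrays for Kcna5 and Kcnu1 in both surgeries and below them for Kcns2 and Kcna1, and for Kcnn1 they lie apart after ischemia.

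The counts between genotypes changed when arrays were left out, among all genes as among channel genes. Calls among all genes ranged from 60, without SUMO-KD ischemia replicate 3, to 210 after ischemia, beside 193 with all arrays. After sham surgery they ranged from 112, without wild-type sham replicate 1 or SUMO-KD sham replicate 3, to 271, beside 260. After ischemia the 2 higher genes became 0 without SUMO-KD ischemia replicate 3 and 1 without SUMO-KD ischemia replicate 1 or 2 or wild-type ischemia replicate 1 or 2, and the lower gene was lost without SUMO-KD ischemia replicate 1 or 3 or any wild-type ischemia array. After sham surgery the higher genes ranged from 1, without SUMO-KD sham replicate 1 or 3 or wild-type sham replicate 1 or 2, to 4, without wild-type sham replicate 3, with 3 without SUMO-KD ischemia replicate 2. The lower genes ranged from 0, without SUMO-KD sham replicate 1 or 2 or wild-type sham replicate 1 or 2, to 3, without SUMO-KD ischemia replicate 2, with 2 without SUMO-KD ischemia replicate 1 or, in wild-type, ischemia replicate 3 or sham replicate 3.

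Channel genes next in order by p did not pass. After ischemia these were Kcnk3, which averaged 184 ± 36.7 in SUMO-KD ischemia and 340 ± 106 in wild-type ischemia (-0.76, SE 0.18, adjusted p = 0.0716), and Cacna1g, with 308 ± 11.3 in SUMO-KD ischemia and 176 ± 9.0 in wild-type ischemia (0.71, SE 0.18, adjusted p = 0.0798). After sham surgery they were Scn3b, with 2652 ± 197 in SUMO-KD sham and 4266 ± 306 in wild-type sham (-0.68, SE 0.16, adjusted p = 0.058), and Kcnj6, with 51.6 ± 13.8 in SUMO-KD sham and 86.2 ± 10.9 in wild-type sham (-0.51, SE 0.12, adjusted p = 0.0626). In all 4 cases the arrays did not overlap. Kcnq5 had the most negative sham value, at 112, 238 and 120 in SUMO-KD sham against 279, 466 and 389 in wild-type sham (-1.15, SE 0.32, adjusted p = 0.103), and its ischemia arrays overlapped between genotypes.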

How the data were processed

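CA1 RNA of 12 samples was measured on 1 Affymetrix array each. The deposited table held 1 linear intensity for each of 22690 probe sets and array. Partek 6.6 and RMA stand in the submitters' processing notes with no role, and the deposited intensity values, which are linear and have a 2% trimmed mean of 500.2 on all 12 arrays, are not on the log2 scale of RMA output. How they were made is not stated in those notes, and the plan had assumed log2 values, so log2(intensity + 32) was tested. An offset lowers the fold of dim genes. The 32 was taken from an earlier description of these data.

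The platform annotation gave 1 symbol to 20393 probe sets, several to 691 and none to 1606, and single-symbol probe sets gave 12394 genes. The 88 channel genes had 129 probe sets, and 41 were not used because a gene had a brighter one. All 88 symbols are current in the RefSeq gene table. For 6 two-sided comparisons, lmFit and eBayes of limma 3.58.1 (R 4.3.3) were run on the 4 group means, with p-values adjusted by Benjamini-Hochberg. Samples are biological replicates per the labels, with no litter or surgery day given, so p-values measure the spread between these pools. The number of arrays limits the precision. No run batch is given. The highest correlation between arrays was 0.993, and 0 pairs were identical. Deviations of same-numbered samples of different groups correlated at r from -0.17 to 0.28 over 18 pairs. Samples with different numbers were not compared in this way, so whether replicate numbers share a day or batch cannot be told. The comparisons treated the samples as unpaired.

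Named genes were all channel genes called in any comparison, the 5 smallest p where fewer than 5 were called, and a list of CA1 channel genes from textbook knowledge. The members and lists were chosen with earlier results of these data known. The procedure was tested on simulated data. Other offsets, normalizations, filters, probe set rules, variance models, a replicate block and omission of each array were run as alternatives.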

Additional observations from a re-analysis of the deposited data

Results flagged for a closer look

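Cacnb4, a beta subunit gene of calcium channels, has a second probe set that was not used for the gene. It averaged 872 ± 230 in SUMO-KD ischemia and 642 ± 24.5 in SUMO-KD sham, and 751 ± 73.6 in wild-type ischemia and 583 ± 61.7 in wild-type sham (SD, n = 3 each). Its mean response over both genotypes was 0.37 on the log2(intensity + 32) scale (adjusted p = 0.0442 in limma with Benjamini-Hochberg adjustment over all probe sets), while the brighter probe set used for the gene had 0.00. It drew attention as a signal in measurements that the comparisons did not use. Which of the probe sets follows the gene was not tested.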

How the results depend on the processing

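Across the alternatives, 841 of 1069 called values of channel genes kept their call, 228 lost it and 0 reversed, and 116 of 12315 uncalled values became called. In wild-type after ischemia, the 4 falls became 2 with an offset of 16 or 1 and 7 with an offset of 64. They became 8 with quantile normalization, dim genes left out or trend and robust settings, and 1 with the compared groups only. The 9 wild-type rises became 7 with an offset of 16, median centring or averaged probe sets. They became 6 with an offset of 1 or the compared groups only, and 10 with dim genes left out. In the mean of both genotypes, the 12 falls became 8 with an offset of 1 and 15 with quantile normalization or trend and robust settings. In SUMO-KD after ischemia, the rises were 2 with dim genes left out, array weights or the compared groups only, and the falls were 0 with an offset of 64 or dim genes left out and 2 with an offset of 1, quantile normalization, trend and robust settings, array weights or the compared groups only. Between genotypes after ischemia, the higher genes were 1 with an offset of 1 or averaged probe sets, and the lower genes were 0 with an offset of 1 or the compared groups only, 2 with median centring, dim genes left out or trend and robust settings, and 3 with array weights. Between genotypes after sham surgery, the higher genes were 1 with an offset of 1 or the compared groups only, and the lower genes were 0 with an offset of 1, 2 with an offset of 64, quantile normalization, median centring or trend and robust settings, 3 with dim genes left out or the replicate block, and 7 with array weights. A further 2-fold threshold, set on intensity + 32, left 1 rise and 0 falls in each ischemia comparison. Between genotypes it left 1 higher and 0 lower gene after ischemia, and 2 higher and 0 lower after sham surgery. With the offset, it also dropped called genes of low intensity whose mean intensities lay more than 2-fold apart. Kcns1 averaged 61.6 in wild-type ischemia and 19.2 in wild-type sham, and Kcnj11 averaged 6.30 in SUMO-KD ischemia and 25.1 in SUMO-KD sham. With the replicate block the ischemia counts were 1 rise and 1 fall in SUMO-KD, 9 and 6 in wild-type and 9 and 14 in the mean.

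Leaving out 1 array gave, after ischemia, 1 to 2 rises and 0 to 2 falls in SUMO-KD, 4 to 9 and 1 to 6 in wild-type, and 7 to 9 and 6 to 12 in the mean. Between genotypes it gave 0 to 3 higher and 0 to 1 lower genes after ischemia and 1 to 4 higher and 0 to 3 lower after sham surgery. The difference of the responses had 0 calls under all alternatives run. Median centring moved the share of higher calls among all genes called between genotypes after ischemia to 53.33%, against 64.25%. Causes were not tested. The mean of both genotypes has no fit on compared groups only. The 12 genes under 32 on every array have little room to show a fall.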

Other observations

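Genes whose products act on channels, but are not channels by symbol, were taken as a list of 34 from textbook knowledge, and 25 were measured. In limma with Benjamini-Hochberg adjustment over all genes, 5 rose and 1 fell after ischemia in SUMO-KD, where 6.08% of all genes rose and 4.62% fell, and 4 rose and 7 fell in wild-type, where 9.59% of all genes rose and 8.88% fell. The small GTP-binding proteins Rrad and Gem, which are known to reduce calcium channel current, rose in both genotypes. Rrad averaged 195 in SUMO-KD ischemia and 34.5 in SUMO-KD sham (1.77, adjusted p = 2.97e-05), and 376 in wild-type ischemia and 14.2 in wild-type sham (3.13, adjusted p = 4.35e-07). It was lower in SUMO-KD ischemia than in wild-type ischemia (-0.83, adjusted p = 0.0216), and the difference of the responses did not pass (-1.36, adjusted p = 0.145). Gem averaged 305 in SUMO-KD ischemia and 40.6 in SUMO-KD sham (2.22, adjusted p = 1.75e-05), and 272 in wild-type ischemia and 39.0 in wild-type sham (2.09, adjusted p = 1.75e-05). Rem2, of the same family, rose in SUMO-KD (1.05, adjusted p = 0.00127), with 0.41 in wild-type (adjusted p = 0.0877). It averaged 1141 in SUMO-KD ischemia and 1198 in wild-type ischemia (-0.07, adjusted p = 0.889). After sham surgery it averaged 546 in SUMO-KD and 891 in wild-type, and was lower in SUMO-KD (-0.70, adjusted p = 0.04). Fgf11 went the other way, with 232 in SUMO-KD ischemia and 133 in wild-type ischemia (0.70, adjusted p = 0.0429). Between genotypes, 1 of the 25 was higher and 1 lower after ischemia, where 1.56% of all genes were called. After sham surgery 0 were higher and 1 was lower, where 2.10% of all genes were called.

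Rest, a repressor of neuronal genes that include channels, rose by 0.67 in SUMO-KD (adjusted p = 0.0181) and by 1.09 in wild-type (adjusted p = 0.00075). In wild-type the falls included the anchors of sodium channels at the initial segment, Ank3 (-0.42, adjusted p = 0.0077) and Sptbn4 (-0.40, adjusted p = 0.0203), whose SUMO-KD values were -0.21 and -0.27 without a call. Among 7 measured chloride channel genes of 9 listed, Clcn5 rose in SUMO-KD (0.70, adjusted p = 0.0281) and 0 passed in wild-type. Among 10 measured Trp channel genes of 15 listed, 2 rose and 1 fell in SUMO-KD, and 1 rose and 1 fell in wild-type, against the same shares of all genes. Trpc6, a cation channel opened by diacylglycerol, averaged 31.3 in SUMO-KD ischemia and 110 in wild-type ischemia (-1.16, adjusted p = 0.000325), and 44.0 in SUMO-KD sham and 95.5 in wild-type sham (-0.75, adjusted p = 0.00339).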
